A study of Homo sapiens with 6 samples.

Results

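The Argonaute and small RNA processing machinery was followed here as 10 genes: AGO1, AGO2, AGO3, AGO4, DICER1, DROSHA, DGCR8, XPO5, TARBP2 and TNRC6A. They were chosen by symbol because a short interfering RNA (siRNA) uses this machinery, and each matched 1 of the 50868 rows of the deposited gene table. RNA came from KYSE-150, a cell line established from a human squamous carcinoma of the oesophagus. One group, nc (3 libraries), is wild type by the series text. The other, siZNF514 (3 libraries, titled si), is labelled a ZNF514 knockout made with siZNF514, although an siRNA lowers a transcript without altering the gene. ZNF514 encodes a zinc finger protein. No other allele or agent is named for either group. The sources used here do not say whether nc cells received a control siRNA, nor give the siRNA's sequence, dose or time of harvest. Nothing in the labels ties the libraries to separate cultures, so every p-value measures the spread between these libraries, which may be technical.

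MicroRNA genes are transcribed into long hairpin RNAs. In the nucleus the Microprocessor, formed by the ribonuclease DROSHA and the RNA-binding protein DGCR8, cuts out the hairpin, and exportin-5 (XPO5) carries it to the cytoplasm. There DICER1, with its partner TARBP2, trims it to a short duplex, from which an Argonaute protein keeps a single strand as its guide. A synthetic siRNA enters at the Argonaute step. AGO2 is the family member known for cutting a matched target, and the GW182 protein TNRC6A links Argonautes to the enzymes that remove the poly(A) tail and the cap of a target transcript. The machinery is also known to act on its own messages: DICER1 is a known target of the let-7 microRNA family, and the Microprocessor is known to cut hairpins within the DGCR8 transcript.

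Sequences that bear on those known loops are shown because DICER1 and DGCR8 moved in opposite directions in these cells. The guide let-7a, from RefSeq (GRCh38.p14), is written 5′ to 3′ with its seed, bases 2 to 8, in capitals.
let-7a: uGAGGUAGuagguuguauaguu
The longest coding DICER1 transcript of GENCODE release 29 (10331 bases, GRCh38) held 4 matches to this seed, searched as the letters CTACCTC on the transcript strand, and all 4 lay in the coding sequence on the minus strand of chromosome 14. Each is shown over 30 bases with the match in capitals.
DICER1 chr14:95107888-95107917: cgctgattcagcatactgtgttCTACCTCt
DICER1 chr14:95103748-95103777: caggaaatacccgtgcaaccaaCTACCTCa
DICER1 chr14:95103640-95103669: cttgatggaaatgctaacaaatCTACCTCa
DICER1 chr14:95094106-95094135: tcctgggagatgcgattttggaCTACCTCa
Among 466 coding transcripts within 10% of that length, 46.6% held at least 1 match and 1.5% held at least 4. The longest coding transcripts of DROSHA, DGCR8, AGO4 and TNRC6A held none, those of AGO1, XPO5 and TARBP2 held 1 each, and that of AGO3 held 2. The AGO2 transcript was not analysed here.

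DGCR8 carries 3 mature microRNAs of 2 hairpins inside its exons on the plus strand of chromosome 22. miR-3618 lies in the untranslated part of 3 of the 4 coding DGCR8 transcripts of GENCODE 29, and both arms of miR-1306 lie in the coding sequence of all 4 (RefSeq, GRCh38.p14, seeds in capitals). None of the 3 shares a seed with another, and microRNA levels themselves were not measured in these libraries.
miR-3618 chr22:20085797-20085818: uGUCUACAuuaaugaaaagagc
miR-1306-5p chr22:20086072-20086093: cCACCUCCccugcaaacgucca
miR-1306-3p chr22:20086112-20086129: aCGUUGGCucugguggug

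The nc libraries held 12175259 to 13696180 counts and the siZNF514 libraries 13262363 to 14318909. ZNF514, the targeted gene, had 239, 273 and 261 counts in nc and 64, 82 and 63 in siZNF514, and fell to 27.3% of its nc level (log2 fold change -1.87, SE 0.14, adjusted p = 5.77e-05; exact two-sided permutation p = 0.1, the smallest that 3 against 3 libraries allow). Of 8 squamous epithelial markers, 7 were measured well enough to test, led by KRT5. Of these 7, 4 passed the test described below as lower in siZNF514 and 0 as higher, against 25.1% and 25.5% of all tested genes. Marker sums here are counts per 1000000 of each library's total (CPM), without the further scaling between libraries used below. With total counts alone, the median log2 fold change of all tested genes was -0.14. The 8 squamous markers summed to 1735 to 1877 CPM in nc and 1198 to 1288 in siZNF514. SOX2 had at most 3 counts in any library. The 5 fibroblast markers summed to 1.87 to 3.7 CPM in nc and 0.438 to 16.2 in siZNF514. The highest value was in siZNF514 replicate 3, which held 112 counts of COL3A1, 49 of COL1A2 and 33 of DCN, against at most 5 of each in any other library. The 5 immune markers summed to 58 to 71.3 in nc and 46.9 to 52.3 in siZNF514, nearly all from CD68, with PTPRC at 5 counts or fewer and CD3E at 1 count or fewer in every library. The 4 endothelial markers summed to 3.25 to 3.45 and 1.81 to 2.16, with CLDN5 at 0. Mitochondrial genes held 4.84% to 4.93% of counts in nc and 3.89% to 3.98% in siZNF514, and 20842 to 21076 genes had a count in nc against 19384 to 20216 in siZNF514. What part these differences between the groups have in the results was not tested. The same 7 of the 10 genes described below passed the threshold in the same directions without siZNF514 replicate 3, with log2 fold changes of 1.03 for DICER1, 1.12 for AGO2, 0.51 for AGO3 and AGO4, 0.44 for DROSHA, -0.54 for DGCR8 and -0.37 for TNRC6A.

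The machinery did not move as a block. DICER1 and AGO2 were about doubled in siZNF514, AGO3, AGO4 and DROSHA rose less, DGCR8 and TNRC6A fell, and AGO1, XPO5 and TARBP2 did not pass the test. All 10 genes had enough counts to be tested. Of these, 7 passed an adjusted p of 0.05 (edgeR quasi-likelihood test, Benjamini-Hochberg adjustment over all 14250 genes tested), 5 higher and 2 lower. The background was high: 50.6% of all tested genes passed in either direction, 25.5% higher and 25.1% lower (3629 and 3583 genes), so 7 of 10 is read only as a description. That split depended on the scaling, with 2493 genes higher and 4775 lower when total counts alone were used in place of the trimmed mean (TMM) factors. The median log2 fold change of the 10 genes was 0.23, against -0.01 over all tested genes. The groups did not overlap for 9 of the 10 genes, AGO1 being the exception, against 60.3% of all tested genes. Of these 9, 5 were higher and 4 lower in siZNF514, against 30.0% and 30.3% of all tested genes. DICER1 and AGO2 passed with a change of at least 2-fold, which 9.28% of tested genes did in either direction and 2.08% did upward. Both were under 2-fold with total counts alone (log2 fold change 0.97 for DICER1 and 0.94 for AGO2) and in limma-trend on FPKM (0.78 to 0.97 and 0.83 to 0.94). In bulk RNA, less transcript per cell and fewer cells that hold it cannot be told apart.

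**Figure D1:**
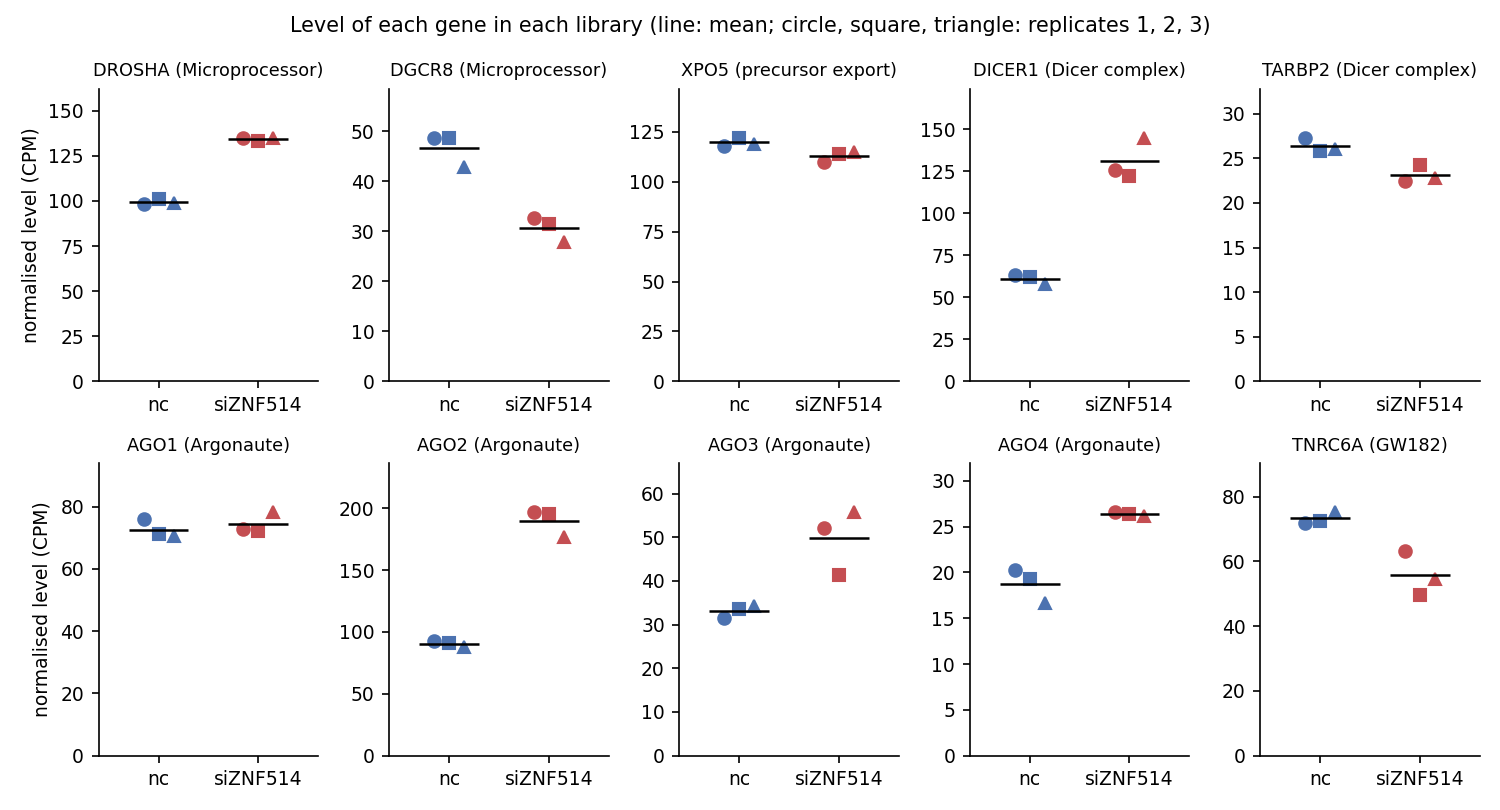
Normalised level of each of the 10 genes (y axis, CPM, from 0) in the 3 nc libraries (blue) and the 3 siZNF514 libraries (red); each symbol is a library and each line a group mean. The groups are separate for every gene but AGO1, with the widest gaps at DICER1 and AGO2 and a narrow one at XPO5.

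The partners of the Microprocessor moved in opposite directions. DROSHA (ENSG00000113360; hg38 chromosome 5, 31400497 to 31532196, minus strand) is the ribonuclease of the complex. Its normalised level, in CPM after TMM scaling, was 98.2, 101 and 98.9 in nc and 135, 133 and 135 in siZNF514. Every siZNF514 library lay above every nc library, and the 3 values of a group were close together. DROSHA rose 1.36-fold (log2 fold change 0.44, SE 0.04, adjusted p = 0.000145), from 99.3 ± 1.31 to 135 ± 1.32 CPM (mean ± SD, n = 3 each).

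DGCR8 (ENSG00000128191; chromosome 22, 20080232 to 20111877, plus strand), which binds the hairpin and positions DROSHA, went the other way. Its level was 48.6, 48.7 and 42.8 CPM in nc and 32.6, 31.4 and 27.9 CPM in siZNF514, so the lowest nc library was still well above the highest siZNF514 library. DGCR8 fell to 65.6% of the nc mean (log2 fold change -0.61, SE 0.09, adjusted p = 0.00108), from 46.7 ± 3.39 to 30.6 ± 2.41 CPM. The ratio of DROSHA to DGCR8 counts within a library, which no scaling between libraries can alter, was 2.02, 2.07 and 2.31 in nc and 4.15, 4.24 and 4.85 in siZNF514. Counts of uncut and cut DGCR8 transcripts cannot be separated in a table of counts per gene, and which exons of DGCR8 the authors counted is not known.

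XPO5 (ENSG00000124571; chromosome 6, 43522330 to 43576075, minus strand), the exporter of hairpin precursors, had 118, 122 and 119 CPM in nc and 109.9, 114 and 115 CPM in siZNF514. The siZNF514 libraries were all slightly lower, by less than in any of the 7 genes that passed. XPO5 did not pass (log2 fold change -0.09, 95% interval -0.19 to 0.01 and adjusted p = 0.134). The call depended on the scaling: with total counts alone, XPO5 passed at -0.21 (adjusted p = 0.00462), while the median of all tested genes stood at -0.14.

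DICER1 (ENSG00000100697; chromosome 14, 95086228 to 95158010, minus strand), the ribonuclease that makes the final duplex, had the highest log2 fold change of the 10 genes. It stood at 63.3, 61.9 and 58.2 CPM in nc and at 126, 122 and 145 CPM in siZNF514, the highest value being in replicate 3. DICER1 rose 2.14-fold (log2 fold change 1.10, SE 0.08, adjusted p = 5.29e-05), from 61.1 ± 2.6 to 131 ± 12.7 CPM. Its antisense neighbour DICER1-AS1, which overlaps it by 366 bases, also rose, at a far lower level (2.85 ± 0.39 to 4.32 ± 0.596 CPM, log2 fold change 0.60, adjusted p = 0.0313). No source used here states whether counting used strand, so reads in the overlap cannot be assigned. The whole of DICER1-AS1 had at most 63 counts in a library against 738 to 1985 for DICER1.

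TARBP2 (ENSG00000139546; chromosome 12, 53500921 to 53506431, plus strand), the double-stranded RNA-binding partner of DICER1, did not rise with it. It had 27.3, 25.8 and 26 CPM in nc and 22.4, 24.2 and 22.8 CPM in siZNF514, lower in each siZNF514 library. The change did not pass (log2 fold change -0.19, SE 0.07, adjusted p = 0.0697) but did with total counts alone (-0.31, adjusted p = 0.0102) and when the fit kept only genes averaging 50 or more counts (-0.22, adjusted p = 0.0341). The related partner PRKRA had 39.8 ± 0.55 CPM in nc and 46.2 ± 5.65 CPM in siZNF514 and did not pass either (0.21, SE 0.09, adjusted p = 0.088). Its value was 0.12 without siZNF514 replicate 1 and 0.09 with total counts alone. The ratio of DICER1 to TARBP2 counts within a library was 2.24 to 2.4 in nc and 5.02 to 6.38 in siZNF514.

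**Figure D2:**
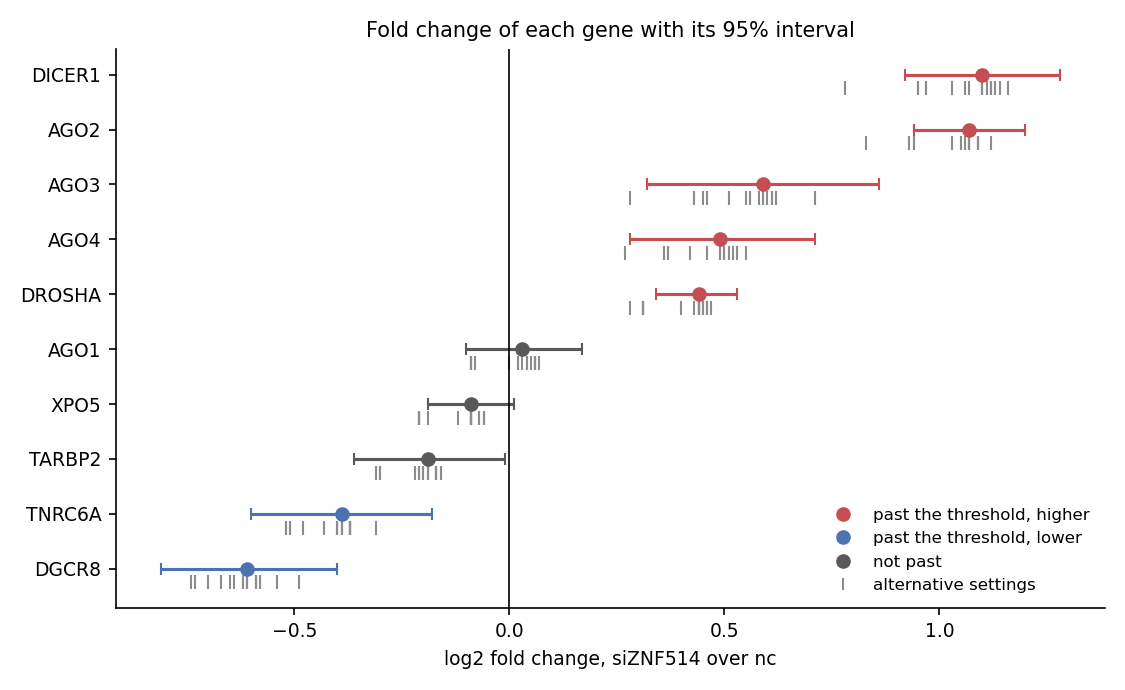
Log2 fold change of siZNF514 over nc for each of the 10 genes (x axis), with the 95% interval from the edgeR fit (bar) and the values under each alternative setting (grey ticks). DICER1 at 1.10 and AGO2 at 1.07 lie to the right, DGCR8 at -0.61 lies farthest to the left, and the intervals of AGO1 and XPO5 cross 0.

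The 4 Argonaute genes differed from one another. AGO2 (ENSG00000123908; chromosome 8, 140520156 to 140635619, minus strand), the family member with known cutting activity, had 92.4, 90.8 and 88 CPM in nc and 197, 195 and 177 CPM in siZNF514. All 3 siZNF514 libraries were near 2 times the nc level, replicate 3 being the lowest of them. AGO2 rose 2.1-fold (log2 fold change 1.07, SE 0.06, adjusted p = 1.82e-05), from 90.4 ± 2.2 to 189.8 ± 11.1 CPM.

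The other 3 genes lie in 1 row on the plus strand of chromosome 1, in the order AGO4 (35808172 to 35857890), AGO1 (35869808 to 35930528) and AGO3 (35930718 to 36072500), with 189 bases between the end of AGO1 and the start of AGO3. AGO1, the middle gene, did not pass while the genes on either side of it rose. AGO1 (ENSG00000092847) had 76.2, 71.3 and 70.5 CPM in nc and 72.8, 72.1 and 78.3 CPM in siZNF514, and the groups overlapped. It did not pass (log2 fold change 0.03, 95% interval -0.10 to 0.17, adjusted p = 0.645), and the estimate changed sign to -0.09 with total counts alone.

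AGO3 (ENSG00000126070) had 31.6, 33.5 and 34.2 CPM in nc and 52.1, 41.3 and 55.8 CPM in siZNF514. The siZNF514 libraries were uneven, with replicate 2 nearest to nc, but none reached down to the nc values. AGO3 rose 1.5-fold (log2 fold change 0.59, SE 0.11, adjusted p = 0.00451). AGO4 (ENSG00000134698), the scarcest of the 4 in counts, had 20.3, 19.3 and 16.7 CPM in nc and 26.6, 26.4 and 26.2 CPM in siZNF514, where the libraries were nearly equal. AGO4 rose 1.41-fold (log2 fold change 0.49, SE 0.09, adjusted p = 0.00381).

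AGO2 made up a larger part of the Argonaute transcripts in siZNF514. Its share of the summed Argonaute FPKM (the deposited counts scaled by gene length and library total) was 37.8%, 38.4% and 38.7% in nc and 52.7%, 53.6% and 48.9% in siZNF514. The groups did not overlap, and the mean share went from 38.3% ± 0.447 to 51.7% ± 2.51 (SD, n = 3 each). The share of AGO1 went from 33.7% ± 0.601 to 22.2% ± 1.28, again without overlap, although its own level did not pass a test. AGO4 went from 17.8% ± 1.15 to 16.2% ± 0.215 and AGO3 from 10.2% ± 0.758 to 9.85% ± 1.48, the last with overlapping groups. The shares are parts of the same sum, so a larger share of AGO2 leaves less for the others and their falls are not separate results. AGO4 and AGO3 themselves rose. An exact two-sided permutation test of 3 against 3 libraries gave p = 0.1 for AGO1, AGO2 and AGO4, the smallest it allows, and p = 0.8 for AGO3 (exact p = 0.133 and 0.8 after Benjamini-Hochberg adjustment over the 4 shares), so no share can pass 0.05 in this design. The summed FPKM of the 4 genes was 13.4 to 14.5 in nc and 19.6 to 20.4 in siZNF514.

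**Figure D3:**
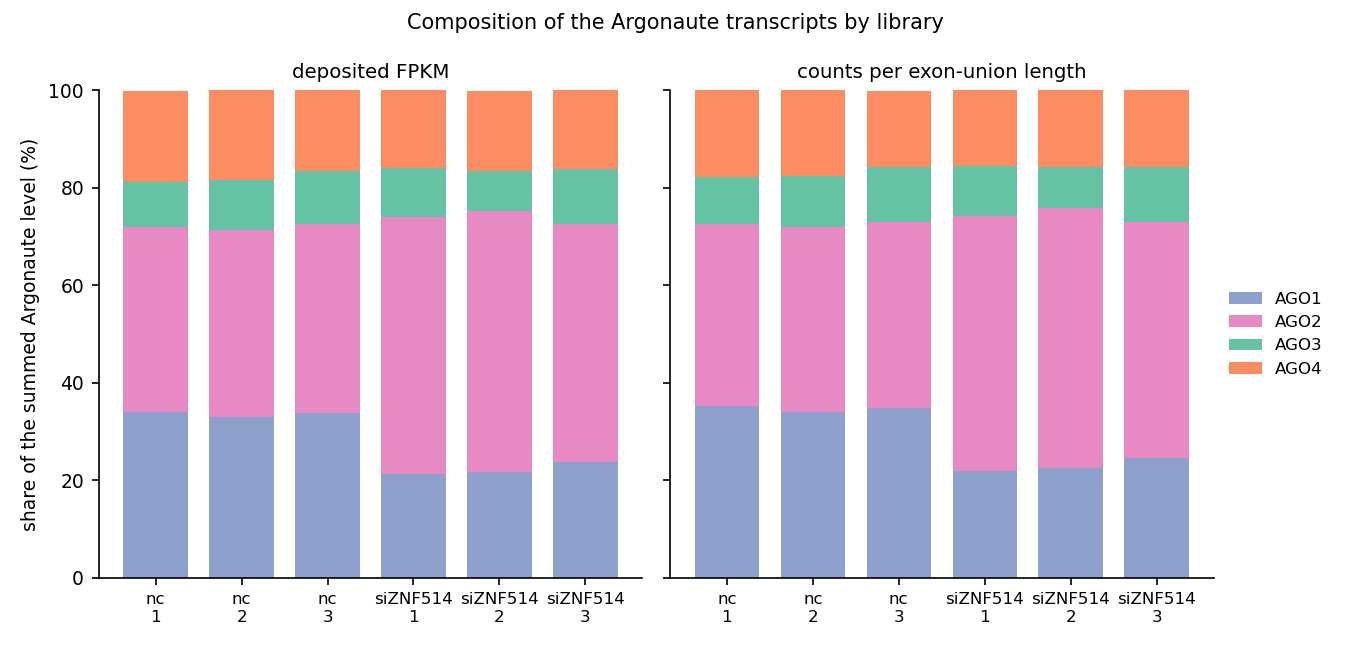
Share of each Argonaute gene (y axis, percent) in the summed level of the 4 genes for each library (x axis), from the deposited FPKM (left) and from counts per exon-union length (right). AGO2 takes 37.8% to 38.7% of the FPKM in nc and 48.9% to 53.6% in siZNF514, and AGO1 takes 33% to 34.1% and then 21.3% to 23.7%.

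TNRC6A (ENSG00000090905; chromosome 16, 24729695 to 24827632, plus strand), the GW182 protein that Argonautes bind, fell while AGO2 rose. It had 72, 72.6 and 75.3 CPM in nc and 63.1, 49.8 and 54.7 CPM in siZNF514, and no siZNF514 library reached the nc values. TNRC6A fell to 76.3% of the nc mean (log2 fold change -0.39, SE 0.09, adjusted p = 0.00868). Its paralogs did not follow it. TNRC6C, scarce at 8.32 ± 1.5 CPM in nc, rose to 12.9 ± 3.29 CPM (log2 fold change 0.63, SE 0.21, adjusted p = 0.0428), a call lost without siZNF514 replicate 3 (0.41), without nc replicate 1 (0.50) or nc replicate 3 (0.67), with total counts alone (0.51), and in 5 further settings. TNRC6B had 37.8 ± 8.03 CPM in nc and 46.1 ± 0.732 CPM in siZNF514 and did not pass (0.29, SE 0.15, adjusted p = 0.143), with values from 0.13 (adjusted p = 0.216) without nc replicate 1 to 0.42 (adjusted p = 0.0465) without nc replicate 2. The ratio of AGO2 to TNRC6A counts within a library was 1.17 to 1.28 in nc and 3.13 to 3.91 in siZNF514.

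Within-library ratios of counts show the same pairs free of any scaling between libraries. AGO2 over AGO1 was 1.21, 1.27 and 1.25 in nc and 2.71, 2.7 and 2.26 in siZNF514. AGO3 over AGO1 was 0.414 to 0.485 and then 0.573 to 0.716, and AGO4 over AGO1 was 0.237 to 0.27 and then 0.334 to 0.367. DICER1 over XPO5 was 0.491 to 0.537 in nc and 1.07 to 1.27 in siZNF514. XPO5 over AGO1, the pair in which neither passed, overlapped between the groups at 1.55 to 1.72 and 1.46 to 1.58. These pairs were picked with the fold changes known and are given as values without a test.

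**Figure D4:**
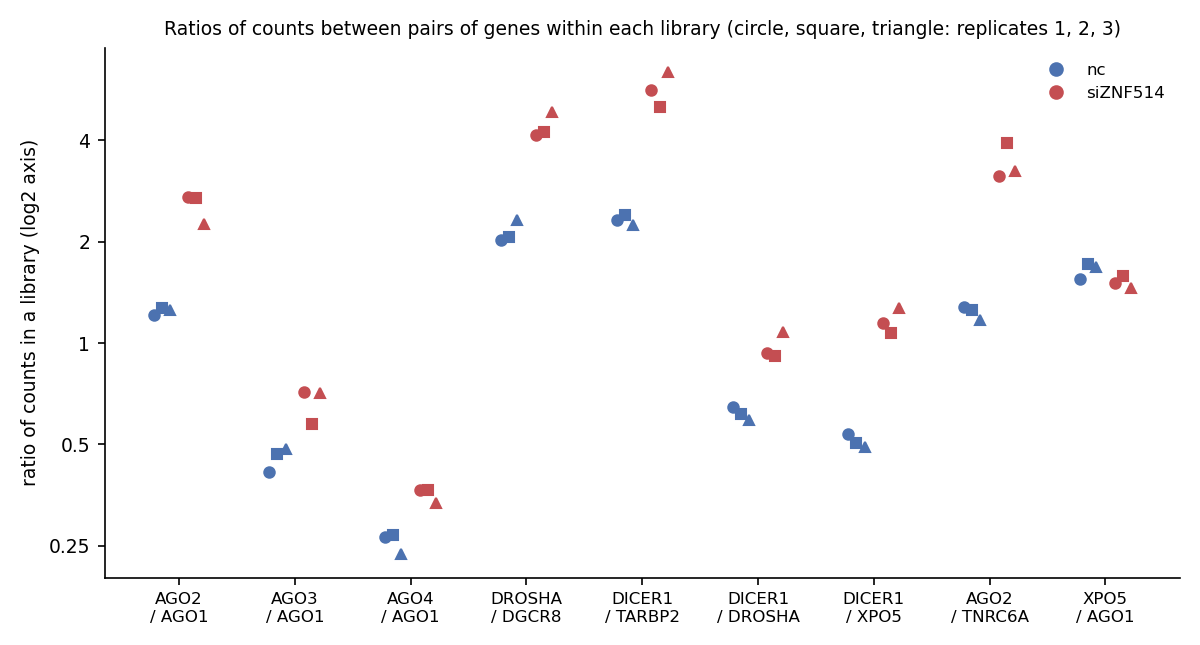
Ratio of counts between pairs of the 10 genes within each library (y axis, log2 scale), with nc in blue and siZNF514 in red; each symbol is a library. The groups are separate for every pair shown except XPO5 over AGO1, and DROSHA over DGCR8 moves from 2.02 to 2.31 in nc to 4.15 to 4.85 in siZNF514.

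Levels of different genes can be set against each other only per length, and the order depended on the length used. The deposited FPKM imply a length that exceeds the gene's whole locus for TARBP2 (12328 bases against a locus of 5511) and for 2062 of the 14250 tested genes, so CPM per kilobase of the exons that GENCODE 29 merges for each gene is given beside it. On that scale XPO5 (14 ± 0.285 CPM per kilobase) and DROSHA (12.8 ± 0.168) led in nc and AGO3 (1.56 ± 0.0627) was lowest. Between them stood TARBP2 (6.45), DGCR8 (6.38), AGO2 (5.71), TNRC6A (5.67), AGO1 (5.23), DICER1 (4.97) and AGO4 (2.58). The GENCODE 29 locus of TNRC6A begins before the deposited one, so its merged exons may include some that were not counted and its place is uncertain. The ranges over libraries overlapped for TARBP2 and DGCR8, for AGO2 and TNRC6A and for AGO1 and DICER1, so these neighbours have no order beyond their spread. In siZNF514 the order began with DROSHA (17.3), XPO5 (13.2), AGO2 (12) and DICER1 (10.7), and AGO2 and DICER1 overlapped. In deposited FPKM, TARBP2 ranked 9 and DICER1 ranked 6 in nc in place of 3 and 8. The Argonaute shares hardly depended on this choice, with AGO2 at 37.9% in nc and 51.4% in siZNF514 per exon-union length. When all tested genes were cut into 10 bins by exon-union length, the bin of shortest genes had a median log2 fold change of 0.22. The 10 genes lay in bins 5 to 10, where medians were -0.03 to 0.00.

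Some of the 10 genes share their upstream region with a neighbour. DROSHA and C5orf22 start 69 bases apart on opposite strands, and the stretch between them, on the strand of DROSHA (RefSeq, GRCh38.p14), is shown because the genes on its sides moved in opposite directions. In it and in the stretches that follow, capitals mark matches to CCAAT (NF-Y) or GGGCGG (SP1) on either strand, and CCGGAAG (ETS), CACGTG (E-box) and the NRF1 motif were searched too without a match.
DROSHA to C5orf22 chr5:31532197-31532265: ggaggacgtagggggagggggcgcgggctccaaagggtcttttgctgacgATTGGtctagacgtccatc
C5orf22 had 67.7, 74.6 and 75.4 CPM in nc and 60.7, 59.9 and 54.2 CPM in siZNF514 and fell (log2 fold change -0.32, SE 0.07, adjusted p = 0.00804), whereas DROSHA rose. The CCAAT letters occur in 12% of 35116 RefSeq upstream windows of 69 bases.

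XPO5 and POLH, a DNA polymerase gene, also start head to head, 74 bases apart, and XPO5 shares 7256 bases at its other end with POLR1C on the opposite strand.
XPO5 to POLH chr6:43576076-43576149: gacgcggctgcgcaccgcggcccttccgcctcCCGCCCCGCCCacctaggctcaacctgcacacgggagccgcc
POLH (-0.34, SE 0.13, adjusted p = 0.0669) and POLR1C (-0.07, SE 0.15, adjusted p = 0.697) did not pass, like XPO5 itself. GGGCGG or its complement occurs 2 times here, overlapping by a base. At least 1 match occurs in 26.6% of upstream windows of 74 bases, and the share with 2 was not counted.

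Upstream of DGCR8, the 241 bases before its start were 79.7% G and C, with 4 matches to CCAAT and 2 to GGGCGG.
DGCR8 chr22:20079991-20080231: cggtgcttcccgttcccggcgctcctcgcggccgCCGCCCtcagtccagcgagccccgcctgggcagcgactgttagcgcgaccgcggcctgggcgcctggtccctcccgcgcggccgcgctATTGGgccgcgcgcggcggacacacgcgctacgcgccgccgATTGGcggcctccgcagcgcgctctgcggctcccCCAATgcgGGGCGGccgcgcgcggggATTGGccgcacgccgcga
At least 1 CCAAT match occurs in 31.4% of upstream windows of 241 bases and at least 1 GGGCGG match in 42.3%. How many windows hold 4 or 2 matches, or as much G and C, was not counted, so these numbers are only described. A match is only a run of letters, and no binding was measured in these samples. DGCR8 shares 12 bases with TRMT2A on the opposite strand, which also fell (37.8 ± 0.892 to 25.9 ± 3.04 CPM, log2 fold change -0.54, adjusted p = 0.00274). Near TARBP2, MAP3K12, which starts or ends 857 bases away, fell (-0.69, adjusted p = 0.00536). ATF7-NPFF, with at most 13 counts in a library, was called lower (-1.13, adjusted p = 0.0487). AC023509.3, which overlaps TARBP2 by 16 bases on the opposite strand and had at most 15 counts, did not pass (-1.67, SE 0.60, adjusted p = 0.054). In siZNF514, ATF7-NPFF had 3, 9 and 5 counts and AC023509.3 had 1, 2 and 9, under the minimum of 10 used to filter genes. Both were tested only through nc, where they were higher, so lower values were favoured in advance and are only described. The neighbours in these paragraphs were chosen after their values were seen, as tested genes within 1 kilobase of 1 of the 10.

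Beyond the 10 genes, 109 other genes of small RNA function were listed by role, and 101 had enough counts to test. Of these, 42 rose, 20 fell and 39 did not pass, which is 61.4% past the threshold against 50.6% of all tested genes, with a median log2 fold change of 0.12. The higher calls depended on the scaling: 27 rose with total counts alone. Among 11 Microprocessor cofactors, 6 fell and 2 rose, against 25.1% and 25.5% of all tested genes. With total counts alone, 6 fell and 1 rose. The helicase gene DDX5, which helps DROSHA with some hairpins, had 412 ± 7.01 CPM in nc and fell to 255 ± 13 CPM (-0.69, SE 0.05, adjusted p = 3.87e-05). SAFB2 (-0.42, adjusted p = 0.000325) and the RNA editing enzyme gene ADAR (-0.33, adjusted p = 0.000207) also fell.

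Of 4 genes listed under export, XPO1 (0.34, adjusted p = 0.00322) and the nuclear pore gene NUP93 (0.40, adjusted p = 0.00034) rose, and RAN, the GTPase that loads exportins, did not pass (0.06, SE 0.05; -0.07 with total counts alone). TSNAX, a subunit of the C3PO nuclease that clears the cut passenger strand of an siRNA, fell from 60.3 ± 0.698 to 34.2 ± 2.68 CPM (-0.82, SE 0.07, adjusted p = 0.00011). Its partner TSN had counts of 1626, 861 and 388 in nc and 391, 400 and 418 in siZNF514 and did not pass (-1.24, SE 0.45, adjusted p = 0.0542), though it did without nc replicate 3 (-1.60), with total counts alone (-1.37) and with no filter on low counts (-1.22). Without nc replicate 1 its value was -0.57. Of 6 tested genes of precursor tailing and decay, the uridylyltransferase genes TUT1 (0.61, adjusted p = 0.0216) and TUT7 (0.19, adjusted p = 0.0225) rose. The part of the 6 past the threshold was 33.3%, below the 50.6% of all tested genes. The call of TUT1 was lost without siZNF514 replicate 3 (0.51) and in limma-trend on FPKM (0.42 to 0.50). That of TUT7 was lost with total counts alone (0.06), in limma-trend on FPKM (0.05 to 0.06), with the replicate block (adjusted p = 0.0613) and without nc replicate 1 or 2 or siZNF514 replicate 1 or 2 (0.18 to 0.19). The exonuclease gene DIS3L2 did not pass (0.25, adjusted p = 0.0582), with values from 0.16 (adjusted p = 0.121) without nc replicate 2 to 0.33 (adjusted p = 0.0289) without nc replicate 1, and 0.13 with total counts alone. LIN28A and LIN28B, which block let-7 maturation, had at most 3 counts in any library.

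Chaperones that load Argonautes split, with 7 of 14 higher and 3 lower, against 25.5% and 25.1% of all tested genes. With total counts alone, 5 were higher and 3 lower. HSP90AA1 rose from 1623 ± 23 to 2354 ± 83.4 CPM (0.54, SE 0.03) and HSP90AB1 rose less (0.19, SE 0.02), while HSPH1 fell (-0.56, SE 0.04). HSP90AB1 stood at 0.07 with total counts alone and in limma-trend on FPKM, where its call was lost with each of the 3 pseudocounts (adjusted p = 0.0534 to 0.0568). Among 18 tested partners and regulators of Argonautes, 8 rose and 4 fell, and with total counts alone 4 rose and 4 fell. AJUBA, a LIM protein of the microRNA silencing complex, fell from 291 ± 13.8 to 108 ± 1.5 CPM (-1.42, SE 0.05). FXR1, an RNA-binding protein, rose (0.76, SE 0.05), as did P4HA1, a prolyl hydroxylase subunit (0.83, SE 0.06).

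Downstream of TNRC6A, the decapping and 5′ decay list had 13 of 21 tested members higher and none lower, with a median of 0.30. Of all tested genes, 25.5% were higher and 25.1% lower. The part past the threshold in either direction was 61.9%, near the 61.4% of the whole list of small RNA genes. With total counts alone, 9 rose and 3 fell, and without siZNF514 replicate 3, 11 rose and 1 fell. EIF4E2, a cap-binding repressor of translation, rose from 94 ± 4.51 to 165 ± 5.32 CPM (0.81, SE 0.05), and its partner GIGYF1 (0.66, SE 0.07) and LSM4 (0.44, SE 0.05) of the decapping activator ring rose with it. Of 19 deadenylation genes, 7 rose and 4 fell, which is 57.9% past the threshold against 50.6% of all tested genes. With total counts alone, 5 rose and 4 fell. BTG1 (0.83, SE 0.07), BTG2 (1.17, SE 0.13) and the poly(A)-binding protein gene PABPC1 (0.47, SE 0.05) rose. Adjusted p-values of the genes given with an SE in this paragraph and the one before it were at most 0.000379. They are from the edgeR quasi-likelihood test with TMM factors and all libraries.

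**Figure D5:**
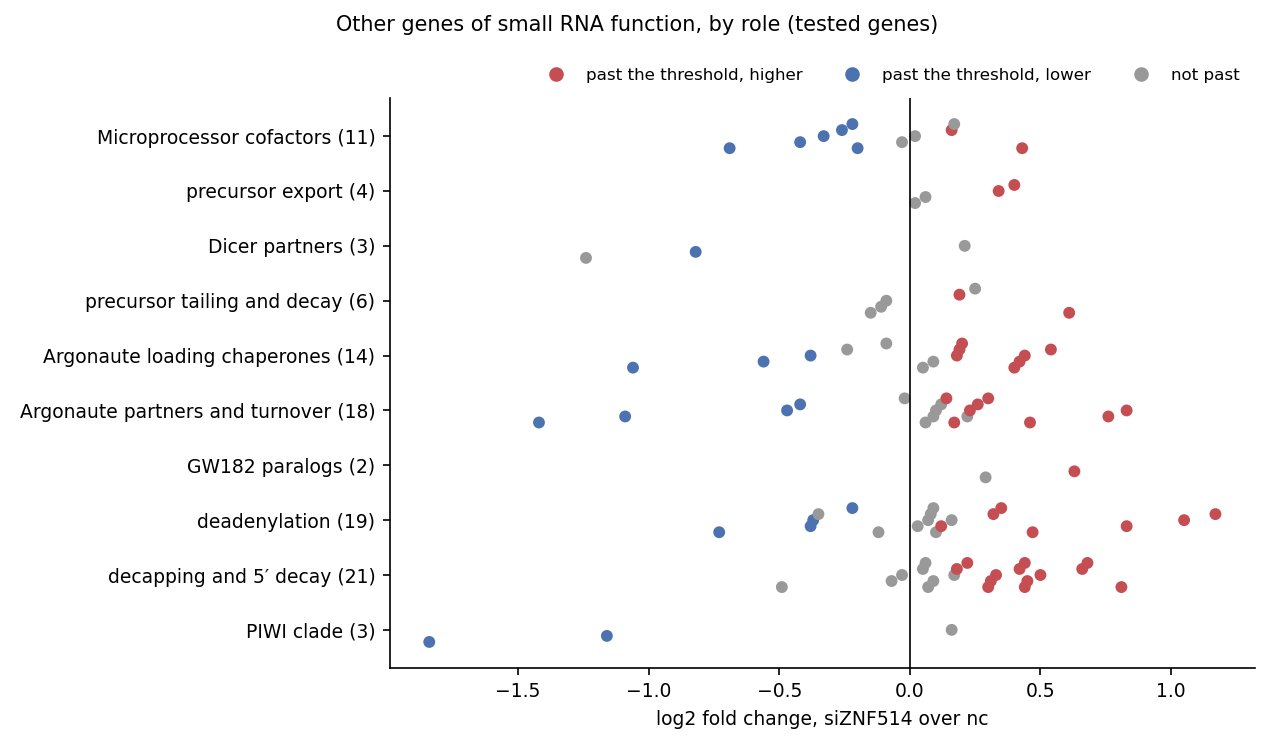
Log2 fold change of siZNF514 over nc (x axis) for the 101 tested genes of small RNA function outside the 10, in rows by role with the number tested; each point is a gene, coloured by its call. The decapping and 5′ decay row has 13 points past the threshold to the right and none to the left, and most Microprocessor cofactors that passed are to the left. Over all tested genes, 25.5% passed to the right and 25.1% to the left.

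Of 7 genes listed for the PIWI branch, known mainly from the germline, 3 were tested. PIWIL1, PIWIL3 and PIWIL4 had at most 2 counts in any library. These genes and the LIN28 genes were named after their counts were seen. PIWIL2 fell from 2.73 ± 0.493 to 1.22 ± 0.627 CPM (-1.16, SE 0.36, adjusted p = 0.0307) and HENMT1, which methylates the ends of PIWI-bound RNAs, from 1.29 ± 0.421 to 0.358 ± 0.244 CPM (-1.84, SE 0.49, adjusted p = 0.0174). HENMT1 had 8, 2 and 4 counts in siZNF514, under the minimum of 10 used to filter genes. It was tested only through nc, where it was higher, so a lower call was favoured in advance and is only described. PIWIL2 had 9, 25 and 14 counts in siZNF514, with replicate 1 under that minimum. It too needed nc, where it was higher, to be tested, so its lower call is also only described. Neither the PIWIL2 nor the HENMT1 call held without siZNF514 replicate 3 (-1.04 and -1.71). PIWIL2 was also lost without nc replicate 1 (-1.05), nc replicate 3 (-1.10) or siZNF514 replicate 1 (-0.88), and HENMT1 without nc replicate 2 (-1.54) or siZNF514 replicate 2 (-1.48). PLD6, which acts in making PIWI-bound RNAs, was measured in every library at 11.5 ± 2.32 CPM in nc and 12.8 ± 1.55 CPM in siZNF514 and did not pass (0.16, SE 0.17, adjusted p = 0.447).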

How the data were processed

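RNA sequencing of 6 KYSE-150 libraries, 3 nc and 3 siZNF514, was deposited by the authors as 1 table with raw counts and FPKM per gene. Per the submitters' processing notes, the tools were edgeR, StringTie 1.3.3b and HISAT2 2.0.4, and the build was hg38. No source used here gives the annotation release, the strand setting or any filter. The deposited counts were whole numbers. The deposited FPKM equalled count over total and 1 length per gene, within 0.079% across libraries. Columns were matched by title.

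Genes were filtered with filterByExpr (14250 kept), scaled by TMM factors (0.954 to 1.05) and tested with the edgeR 4.0.16 quasi-likelihood F test in R 4.3.3, siZNF514 over nc, with Benjamini-Hochberg adjustment at 0.05 over all tested genes. SE is the log2 fold change divided by the square root of F. CPM are tested counts scaled by these factors, except the summed marker levels, which are counts scaled by library totals alone. Pairs of replicates differed beyond sampling noise (chi-square per degree of freedom 5.54 to 7.18). The scripts were tested on simulated data. Alternatives were a replicate block, each library left out, other scalings and filters, a gene length offset, DESeq2 1.42.0 and limma-trend (limma 3.58.1) on log2(FPKM + 0.1).

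The 10 genes, the lists and the tests were chosen with earlier results of these data known. Named genes were the 10, ZNF514, TNRC6B, TNRC6C, PRKRA and, in each role, up to 3 tested genes with the smallest p-value. Promoter and microRNA sequences were from RefSeq (GRCh38.p14). The loci of 9 of the 10 genes equalled those of GENCODE 29. That of TNRC6A begins at 24610209 in GENCODE 29 and at 24729695 in the deposited data. A promoter window was found for 9 of the 10, without AGO2.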

Additional observations from a re-analysis of the deposited data

How the results depend on the processing

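The 7 genes past the threshold, DICER1, AGO2, AGO3, AGO4, DROSHA, DGCR8 and TNRC6A, kept their calls and directions under all 18 alternatives run. The number of the 10 genes called lower went from 2 to 4 with total counts alone, with a mean count of at least 50, and in limma-trend on FPKM with each of 3 pseudocounts (0.1, 1 and 0.01) and with a mean FPKM of at least 0.5. The 2 added were TARBP2 (-0.31, -0.22, -0.30, -0.21, -0.31 and -0.30 in that order) and XPO5 (-0.21, -0.12, -0.21, -0.19, -0.21 and -0.21). AGO1 changed sign in the same order (-0.09, -0.00, -0.09, -0.08, -0.09 and -0.09) without passing. The number of listed genes of small RNA function called higher went from 42 to 27 with total counts alone and to 23, 22, 22 and 23 in limma-trend on FPKM with 0.1, 1, 0.01 and the mean FPKM filter. RAN was -0.07 in each of these 5. FPKM carry no correction beyond the total, and with total counts alone the median of all tested genes was -0.14, with 2493 genes higher and 4775 lower against 3629 and 3583. The AGO3 share of Argonaute FPKM, -0.336 percentage points, was 0.0205 without nc replicate 3 and 0.458 without siZNF514 replicate 2. Its range over single libraries left out was -1.01 to 0.458.

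With the replicate block, 7 of the 10 genes and 6640 of all genes passed, against 7212 without it. Same-numbered libraries had correlations of 0.01, 0.04 and -0.04 between their deviations from the group means. Libraries with different numbers had -0.06 to 0.05. No shared effect of a number was seen, but values from 3 libraries per group cannot show that the libraries were unpaired. Exon-union length was chosen as an alternative after seeing the data. With single libraries left out, 6310 to 6563 of all genes and 51 to 58 of the listed genes passed. PIWIL2 (9 to 40 counts per library) lost its call without any 1 of 4 libraries and HENMT1 (2 to 25 counts) without any 1 of 3.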
